A study of Mus musculus with 6 samples.

Results

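Prostaglandins are lipid signals made from arachidonic acid, and 10 mouse genes of their synthesis, removal and reception are described here in E0771, a carcinoma cell line from mouse mammary gland. The members were chosen by name (Ptges, Ptges2, Ptges3, Ptgs1, Ptgs2, Pla2g4a, Ptgis, Hpgd, Ptger4 and Slco2a1), with the difference between the groups in these same libraries already known. All 10 were found among the 55571 genes of the count table, 8 had at least 1 count, and 6 passed the filter on low counts and were tested among 13594 genes. The contrast that informed the choice is the only one in the study, so the members' values are given as a description, with no p.

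The study has 2 groups of 3 libraries. E0771 cells carried either a control vector or wild-type Malt1 (Malt1-WT), and the sample titles name no stimulus for either group. The labels give no promoter for the introduced gene, no clone or pool of cells and no separate cultures, so p-values measure only the spread between these libraries, which may be technical. Each library held 17601656 to 20543778 counts. Malt1 itself had 517, 633 and 611 counts with the vector and 5526, 6176 and 5087 with Malt1-WT (log2 fold change 3.34, SE 0.042). Levels below are in CPM, counts scaled to library size with TMM factors. Of 9 mammary epithelial markers, Krt8 and Epcam had the most counts. The 9 together summed to 74.7 to 79.2 CPM with the vector and to 65.6 to 71.2 CPM with Malt1-WT. Of 3 tested, 0 were called higher and 1 lower, Krt8 (log2 fold change -0.20), beside 61.2% of all tested genes called. Krt5 was at 0 in all 6 libraries, and Cdh1, which encodes E-cadherin, had 12 counts in the 3 vector libraries and 16 in the 3 Malt1-WT libraries. Of 8 fibroblast markers, Pdgfrb and Col3a1 had the most counts, and the 8 together summed to 572 to 603 CPM with the vector and to 493 to 535 CPM with Malt1-WT. They did not move together: of 7 tested, 2 were called higher and 3 lower, beside 61.2% of all tested genes called. Pdgfrb was higher (log2 fold change 0.57) and Col3a1 lower (-0.66).

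In the textbook pathway, a phospholipase such as the product of Pla2g4a frees arachidonate from membranes, and a cyclooxygenase, encoded by Ptgs1 or Ptgs2, turns it into the unstable intermediate PGH2. Terminal synthases then make one prostanoid each: Ptges, Ptges2 and Ptges3 encode enzymes linked to PGE2, and Ptgis encodes prostacyclin synthase. The transporter encoded by Slco2a1 carries prostaglandins into cells, the dehydrogenase encoded by Hpgd inactivates them, and Ptger4 encodes EP4, a receptor for PGE2. In mammary tumours the inducible enzymes, COX-2 from Ptgs2 and mPGES-1 from Ptges, are the ones usually discussed.

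The 250 bases before the start are shown for the inducible synthase gene and the cyclooxygenase pair, since Ptges was high in Malt1-WT, Ptgs1 was low there and Ptgs2 was listed at 0. Sequences are from RefSeq (build GRCm38.p6), written 5′ to 3′ on the gene's own strand, with matches to the searched motifs in capitals.
Ptges (chr2:30903298-30903547, minus strand): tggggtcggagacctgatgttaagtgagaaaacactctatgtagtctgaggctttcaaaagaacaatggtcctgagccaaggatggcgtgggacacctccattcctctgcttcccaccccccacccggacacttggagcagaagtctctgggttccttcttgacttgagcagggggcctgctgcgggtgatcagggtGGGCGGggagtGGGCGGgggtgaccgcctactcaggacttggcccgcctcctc
Ptgs1 (chr2:36230176-36230425, plus strand): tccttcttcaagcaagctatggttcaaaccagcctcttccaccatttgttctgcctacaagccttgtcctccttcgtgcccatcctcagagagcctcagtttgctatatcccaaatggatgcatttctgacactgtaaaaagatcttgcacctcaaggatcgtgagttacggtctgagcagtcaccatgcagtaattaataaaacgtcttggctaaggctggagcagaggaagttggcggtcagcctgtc
Ptgs2 (chr1:150099781-150100030, plus strand): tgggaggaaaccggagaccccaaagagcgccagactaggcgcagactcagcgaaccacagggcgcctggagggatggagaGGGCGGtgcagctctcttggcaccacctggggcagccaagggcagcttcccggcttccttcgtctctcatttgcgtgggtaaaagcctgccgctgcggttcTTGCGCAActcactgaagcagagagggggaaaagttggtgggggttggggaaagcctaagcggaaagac

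Both strands were searched for the core CRE letters TGACG, the full CRE TGACGTCA (which contains the core), the AP-1 site TGANTCA, the E-box CACGTG, the C/EBP site TTNNGCAA, the GC box GGGCGG, the TATA box TATAAA and the kB consensus. The Ptges window held the GC box at 2 places, at bases -53 to -48 and -42 to -37 counted from the start, and no other searched motif. A GC box occurs in 32.7% of 32851 promoter windows of the same length. In the Ptgs2 window there was 1 GC box at -170 to -165 and 1 C/EBP site at -69 to -62, a motif found in 9.56% of windows. The Ptgs1 window held no searched motif, and its GC content was 48%, against 59.6% for Ptges and 61.6% for Ptgs2. The kB consensus, present in 3.9% of windows, matched in none of the promoter windows of the 9 members with a sequence. A match describes letters only, and its absence says nothing beyond these windows.

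Among the 10 genes, Ptges had the largest fold difference between the groups. Per library it had 3151, 3633 and 3685 counts with the vector and 29211, 32581 and 28053 counts in Malt1-WT. The groups are far apart: the lowest Malt1-WT library was at 1624 CPM and the highest vector library at 183 CPM. Mean expression went from 178 ± 4.66 CPM to 1631 ± 7.03 CPM (SD, n = 3 each), a 9.15-fold difference (log2 fold change 3.19, SE 0.029). The Malt1-WT libraries differed from one another by a coefficient of variation of 0.431%, where counting error alone gives 0.578%. In the vector control it was 2.61%, against 1.69% from counting error. By size, Ptges ranked 159 among the increases of the 13594 tested genes, a rank that comes from the contrast that informed its choice. In the authors' deposited table its log2 fold change is 3.18.

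**Figure D1:**
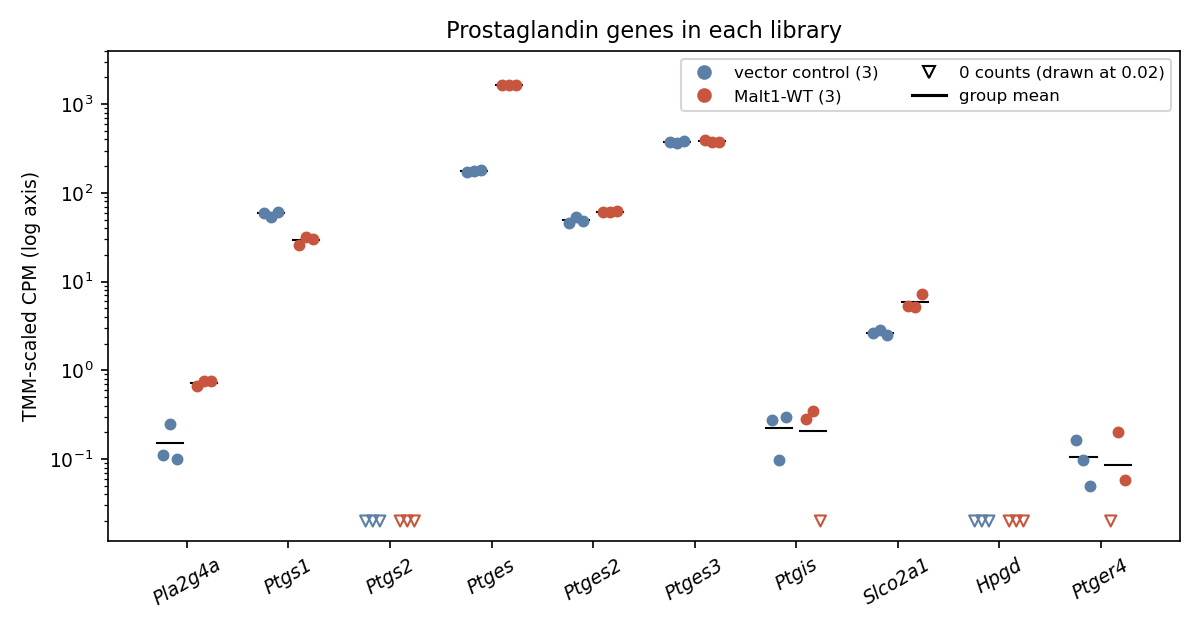
TMM-scaled CPM (log axis) of the 10 genes in each library, with 3 vector control and 3 Malt1-WT points per gene and a line at each group mean; open triangles mark libraries with 0 counts. Ptges stands at 174 to 183 CPM with the vector and 1624 to 1638 CPM in Malt1-WT, while Ptgs2 and Hpgd have no count in any library.

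Ptges lies on chromosome 2 (30889471 to 30929863, minus strand, GRCm38). The GENCODE M21 gene model starts upstream of the RefSeq start used for the promoter. Within 100 kb of it the annotation has 9 other protein-coding genes. Of these, Ntmt1 (0.55), 1700001O22Rik (1.45), Fnbp1 (0.33) and Tor1b (0.26) were called higher, with the log2 fold change in brackets, beside 31.0% of all tested genes. The other 5 were not called, among them Prrx2 at 0.40 (SE 0.257, edgeR quasi-likelihood adjusted p = 0.178). The value of 1700001O22Rik (SE 0.314) rests on few counts, 9, 17 and 26 with the vector and 59, 39 and 35 in Malt1-WT. Gm13400, a processed pseudogene that overlaps the gene on the same strand, had 5 counts with the vector and 21 in Malt1-WT and shares no exonic base with Ptges.

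**Figure D2:**
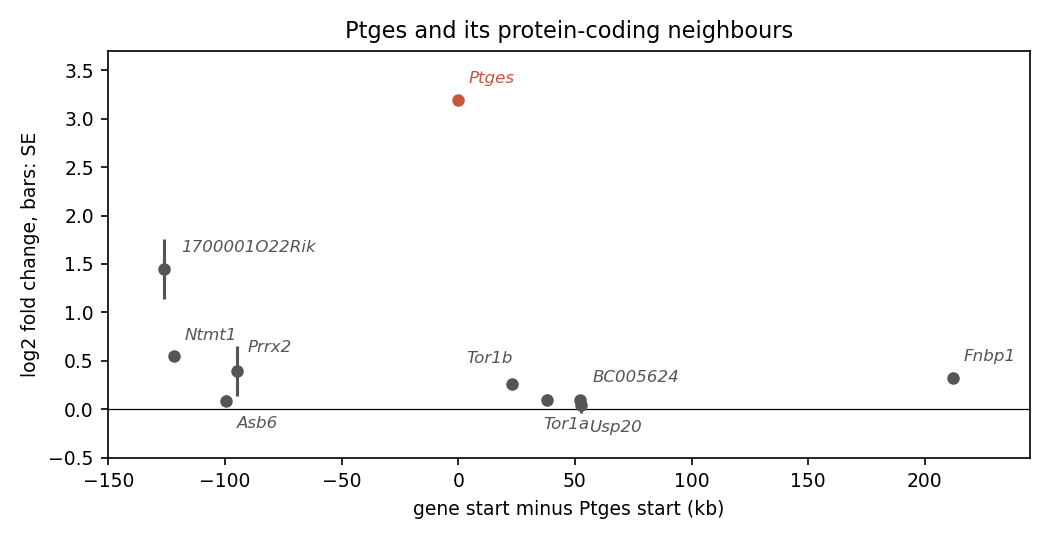
log2 fold change (Malt1-WT minus vector, bars are SE) of Ptges and the 9 protein-coding genes within 100 kb, against the distance of each gene's start from that of Ptges in kb. Ptges is at 3.19 and its neighbours lie between 0.04 and 1.45.

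The other enzymes linked to PGE2 synthesis moved little. Ptges2 (chromosome 2, 32395896 to 32405772, plus strand), which encodes the membrane-associated mPGES-2, had 825, 1090 and 979 counts with the vector and 1091, 1206 and 1067 in Malt1-WT. After scaling the groups did not overlap, with means of 49.2 ± 4.02 and 61.1 ± 1.11 CPM (SD, n = 3 each) and a log2 fold change of 0.31 (SE 0.054). Ptges3 (chromosome 10, 128058954 to 128077272, plus strand) encodes p23, a cytosolic PGE synthase that is also a co-chaperone of Hsp90. It had 6709, 7387 and 7653 counts with the vector and 7121, 7587 and 6428 in Malt1-WT, and the groups overlapped at 371 ± 8.94 and 384 ± 12.2 CPM (log2 fold change 0.05, SE 0.030). An annotated pseudogene, Ptges3-ps, was counted at 31.0 CPM with the vector and 30.4 CPM in Malt1-WT, so some reads may be divided between these copies.

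Compared per length, as TPM (counts divided by exonic length and scaled to one total per library), the order of the 3 genes changed between groups. In the vector control Ptges3 led at 595 ± 22.5 TPM, followed by Ptges at 161 ± 4.75 and Ptges2 at 34.6 ± 2.27 (SD, n = 3). In Malt1-WT Ptges came first at 1395 ± 8.48 TPM, then Ptges3 at 582 ± 15.2 and Ptges2 at 40.6 ± 0.703. Neighbours in either order differ by far more than their spread. Ptges thus made up 20.4 ± 0.295% of the summed TPM of the 3 genes with the vector and 69.2 ± 0.634% in Malt1-WT. The sum itself went from 791 ± 25.1 to 2018 ± 6.27 TPM. Among all genes with a length, Ptges stood at rank 1031 by TPM with the vector and at rank 81 in Malt1-WT.

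**Figure D3:**
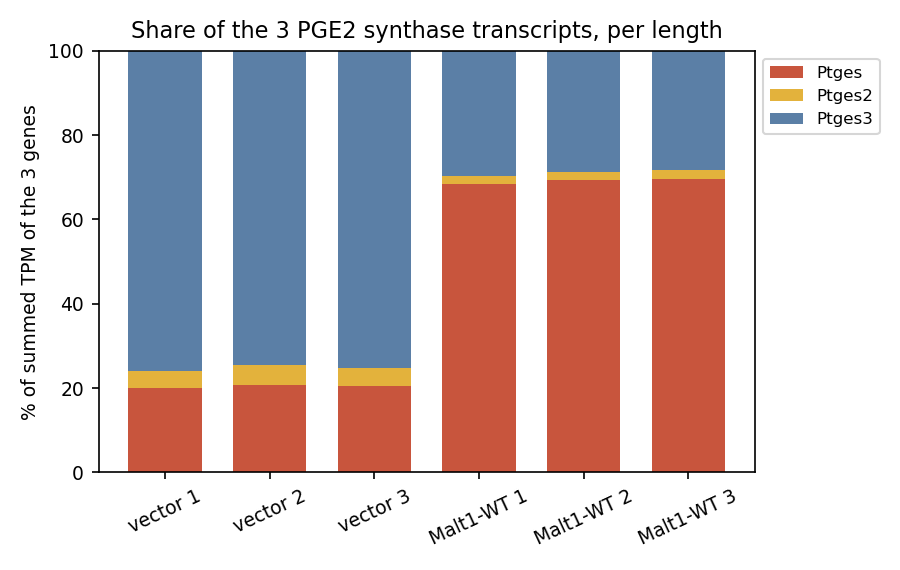
Share of the summed TPM of Ptges, Ptges2 and Ptges3 held by each gene (% of the sum) in the 6 libraries. The Ptges share is 20.1 to 20.7% in the vector libraries and 68.4 to 69.7% in the Malt1-WT libraries.

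The cyclooxygenase step, upstream of these synthases, showed the opposite direction. Ptgs1 (chromosome 2, 36230426 to 36252272, plus strand), which encodes the constitutive COX-1, had 1088, 1104 and 1240 counts with the vector and 459, 637 and 515 in Malt1-WT. Every Malt1-WT library was below every vector library. Mean expression was 58.6 ± 3.92 CPM with the vector and 29.2 ± 3.16 CPM in Malt1-WT (SD, n = 3 each), a log2 fold change of -1.003 (SE 0.065). In the authors' deposited table the log2 fold change of Ptgs1 is -1.02. Gm43621, a gene model on the opposite strand, shares 148 exonic bases with Ptgs1 but had only 12 counts with the vector and 3 in Malt1-WT.

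Ptgs2 (chromosome 1, 150100031 to 150108227, plus strand), the gene of the inducible COX-2, had 0 counts in each of the 6 libraries. Over 57138100 counts with the vector and 56554091 in Malt1-WT, 0 counts allow a level of up to 0.0525 and 0.053 CPM respectively. Here CPM is 3 allowed counts over the group's total, without TMM factors. These limits cover counting error only and hold only if the authors' annotation and counting kept reads of this gene, which was not tested. No other gene of GENCODE M21 overlaps it. Of the separately listed genes Ptgs2os and Ptgs2os2, the first was also at 0 and the second had 6 counts per group. The ratio of Ptges TPM to Ptgs1 TPM was 2.86, 3.25 and 2.94 in the vector libraries and 62.9, 50.5 and 53.8 in the Malt1-WT libraries. With Ptges higher and Ptgs1 lower in every Malt1-WT library, these ratios had to separate, so they add no further result.

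Pla2g4a (chromosome 1, 149829618 to 149961290, minus strand) encodes cytosolic phospholipase A2 alpha, and it starts 139 kb from the start of Ptgs2. Counts were 2, 5 and 2 with the vector and 12, 15 and 13 in Malt1-WT. The Malt1-WT libraries were all higher, at 0.726 ± 0.0484 CPM against 0.152 ± 0.0813 CPM (SD, n = 3 each). With 9 against 40 counts in all, the ratio was 4.73 with an exact 95% binomial interval of 2.26 to 11.1, which covers counting error only. The gene passed the filter only through the group where it is high. At its vector level in both groups it would not have been tested, so its call is read with that limit. Its level stayed low per length, at 0.382 ± 0.0276 TPM in Malt1-WT.

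Ptgis (chromosome 2, 167191805 to 167240604, minus strand), the prostacyclin synthase gene, had 5, 2 and 6 counts with the vector and 5, 7 and 0 in Malt1-WT. The groups overlapped, and the gene was below the filter.

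Of the genes that remove prostaglandins, Slco2a1 had counts in every library and Hpgd in none. Slco2a1 (chromosome 9, 102988712 to 103096002, plus strand), the prostaglandin transporter gene, had 48, 58 and 50 counts with the vector and 95, 103 and 123 in Malt1-WT. The groups did not overlap, with 2.66 ± 0.181 and 5.88 ± 1.14 CPM (SD, n = 3 each) and a log2 fold change of 1.14 (SE 0.178). In its exons Slco2a1 shares 104 bases with n-R5s89, an rRNA gene on the opposite strand, whose part in these counts was not tested. The third Malt1-WT library, at 7.18 CPM, stood above the other two at 5.31 and 5.14 CPM. Hpgd (chromosome 8, 56294585 to 56321043, plus strand), which encodes 15-hydroxyprostaglandin dehydrogenase, had 0 counts in all 6 libraries, with the same upper limits and the same condition on them as Ptgs2.

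Slco2a1 is also known from endothelial cells, so their markers were counted. Of 7 endothelial markers 3 were tested, beside a share of 61.2% called over all tested genes. Of these 3, 1 was called higher, Pecam1 (log2 fold change 1.02, edgeR quasi-likelihood adjusted p = 4.78e-09), and 0 were called lower. Their summed level was 10.2 to 12.1 CPM with the vector and 15.1 to 16.6 CPM in Malt1-WT. Egfl7, next to Pecam1 in counts, had 347 counts with the vector and 282 in Malt1-WT and was not called (log2 fold change -0.21, SE 0.151). Emcn was at 0 in all libraries and Cdh5 had 20 and 33 counts per group. Of 10 leukocyte markers 6 were tested, 3 were called higher and 2 lower, with a summed level of 27.7 to 32.4 and 37.3 to 41.6 CPM. Tyrobp was at 0 and Ptprc had 3 and 4 counts per group, while Fcer1g (14.8 and 12.2 CPM) and Cd68 (4.48 and 14.4 CPM) had the most counts. Adgre1 had 3 counts with the vector and 81 in Malt1-WT, and Lyz2 had 221 and 41. Of 5 mast cell and granulocyte markers, S100a8 and Kit had the most counts, Cpa3 and Mcpt4 were at 0, and the sum was 11.7 to 12.9 and 12.3 to 14.0 CPM. Most of that sum was S100a8 (12.3 and 12.6 CPM), while Kit had 1 count with the vector and 29 in Malt1-WT. The part of these markers in the results was not tested. In bulk libraries, fewer cells of a kind and less RNA per cell cannot be told apart.

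Ptger4 (chromosome 15, 5206661 to 5244187, minus strand), the EP4 receptor gene, had 3, 2 and 1 counts with the vector and 0, 4 and 1 in Malt1-WT. The groups overlapped at about the level of single counts. Ptger1 (EP1) had 6, 16 and 11 counts with the vector and 6, 3 and 7 with Malt1-WT. Ptger2 (EP2) and Ptger3 (EP3) had 1 count each over the 6 libraries. In its exons Ptger4 shares 82 bases with Ttc33 and 1015 bases with a pseudogene, both on the opposite strand. The strand setting of the counting, not given in the sources used here, bears on such overlaps, and Ttc33 was at 34.9 CPM with the vector and 33.2 CPM with Malt1-WT.

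Counted together, 5 of the 6 tested members were called at an edgeR quasi-likelihood adjusted p under 0.05, beside 61.2% of all tested genes. One of the 5, Pla2g4a, had entered the test only through Malt1-WT. Ptges, Ptges2, Pla2g4a and Slco2a1 were higher in Malt1-WT, beside 31.0% of tested genes, and Ptgs1 was lower, beside 30.2%. The same 5 genes had groups that do not overlap in scaled counts, as did 64.4% of tested genes. Tested against a 2-fold change, a test added after the data were seen, 1 member passed, Ptges, beside 7.92% of tested genes. The members' median log2 fold change was 0.72, and that of all tested genes was -0.0029. Since the contrast informed the choice of the genes, nothing is read from these counts.

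**Figure D4:**
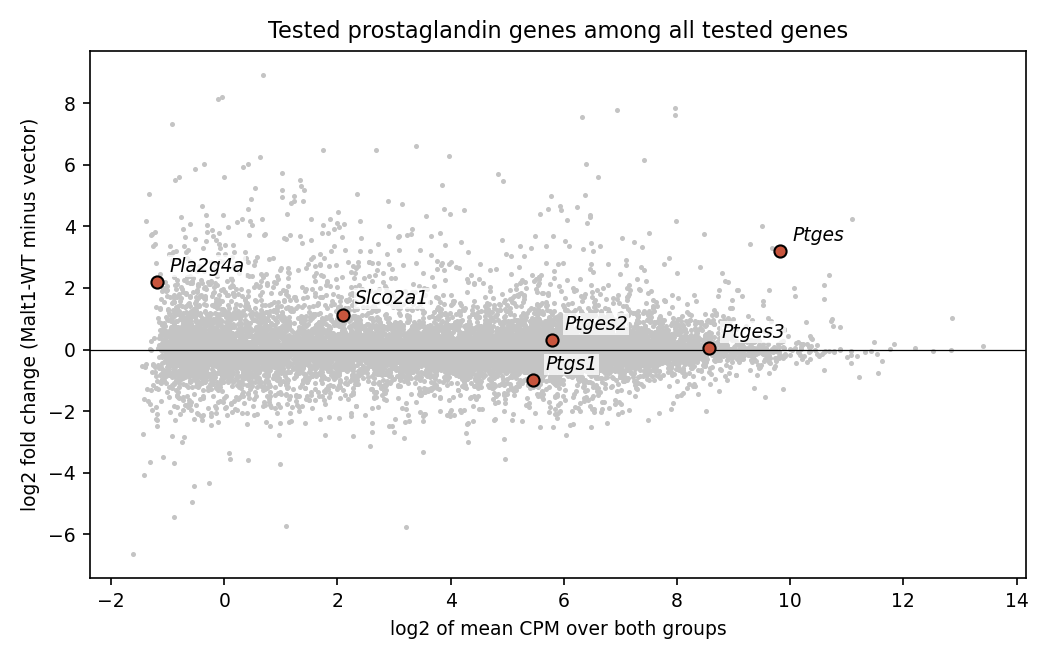
log2 fold change (Malt1-WT minus vector) against log2 of the mean CPM over both groups for all 13594 tested genes in grey and the 6 tested prostaglandin genes in red. Ptges combines a log2 fold change of 3.19 with a high level, Pla2g4a lies at the low end of expression, and Ptgs1 is the single member below 0.

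The other genes of eicosanoid metabolism come from lists written by function, with earlier results of these data in view. The share called below is therefore a description only. Of 86 listed genes 83 were in the table, 6 of these had no count, and 44 were tested: 21 were called higher, 15 lower and 8 were not called, with a median log2 fold change of 0.14. The share called was 81.8%, beside 61.2% of all tested genes (31.0% higher and 30.2% lower). Of the 44 genes, 37 would have passed the filter on low counts in either group alone, and of these 17 were higher, 13 lower and 7 not called. Pla2g4e, Ptgir, Aloxe3 and Cyp1b1 passed only through Malt1-WT, where they are high, and Mgll and Ggt5 only through the vector group, where they are high, so the adjusted p of these 6 is read with that limit.

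Among genes that supply or retain arachidonate, 9 of 22 tested were higher, 10 lower and 3 not called, beside 61.2% of all tested genes called. The 9 tested Pla2g genes of this list went both ways, with 6 higher in Malt1-WT, 2 lower (Pla2g4c at -0.99 and Pla2g7 at -0.75 on the log2 scale) and 1 not called. Pla2g16, the gene of an adipose-type phospholipase, had 49, 63 and 45 counts with the vector and 256, 268 and 222 in Malt1-WT (log2 fold change 2.34, SE 0.140, edgeR adjusted p = 1.78e-20). Pla2g4e, a relative of Pla2g4a with few counts, was 1.26 higher on the log2 scale (SE 0.351, adjusted p = 0.00164). Mgll, which encodes the lipase that turns the endocannabinoid 2-AG into arachidonate, fell by 1.81 on the log2 scale (SE 0.476, edgeR adjusted p = 8.98e-04) on 15, 13 and 29 against 5, 6 and 4 counts. Pla2g4e passed the filter on low counts only through Malt1-WT and Mgll only through the vector group, each where it is high. The secreted enzyme gene Pla2g5 and the calcium-independent Pla2g6, named after their values were seen, stood at 85.6 ± 3.02 and 26.9 ± 1.12 TPM in Malt1-WT, against 0.382 TPM for Pla2g4a. The desaturase genes Fads1 (-0.60) and Fads2 (-0.93), also named after their values were seen, were called lower.

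For synthases and reductases of other prostanoids, 3 of 5 tested were higher, none lower and 2 not called, beside 61.2% of all tested genes called. Akr1b3, an aldose reductase gene with known PGF synthase activity, was 0.39 higher on the log2 scale (SE 0.030, edgeR adjusted p = 4.65e-16) and Akr1b8 was 0.29 higher (SE 0.052, adjusted p = 2.17e-06). The third was Zadh2, a reductase gene, at 0.17 (SE 0.044, adjusted p = 5.26e-04). The genes of the haematopoietic and lipocalin-type PGD synthases, Hpgds and Ptgds, and of thromboxane synthase, Tbxas1, were below the filter, with at most 12 counts in any library. Ptgr1, which encodes an enzyme acting after Hpgd, was counted at 60.9 ± 3.32 and 62.6 ± 1.80 CPM (SD, n = 3 each).

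Among the other receptors and transporters, the prostacyclin receptor gene differed most. Ptgir, which passed the filter only through Malt1-WT, had 13, 16 and 7 counts with the vector and 154, 140 and 135 in Malt1-WT. The groups were far apart, at 0.616 ± 0.235 and 7.82 ± 0.813 CPM (SD, n = 3 each), with a log2 fold change of 3.66 (SE 0.228, edgeR adjusted p = 8.15e-20). Abcc4, which encodes MRP4, an exporter of PGE2 among other anions, had 2016, 2146 and 2201 counts with the vector and 4390, 5050 and 4234 in Malt1-WT (log2 fold change 1.19, SE 0.035, edgeR adjusted p = 1.27e-33). Slco4a1, another organic anion transporter gene, was 1.41 higher on the log2 scale (SE 0.269, adjusted p = 1.05e-05), and Ptgfrn, the gene of a protein associated with the PGF receptor, was 0.24 lower. With Ptgfrn as the single lower gene, 3 of the 4 tested genes of this list were higher and 9 listed genes were not tested. Over all tested genes 31.0% were called higher and 30.2% lower.

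**Figure D5:**
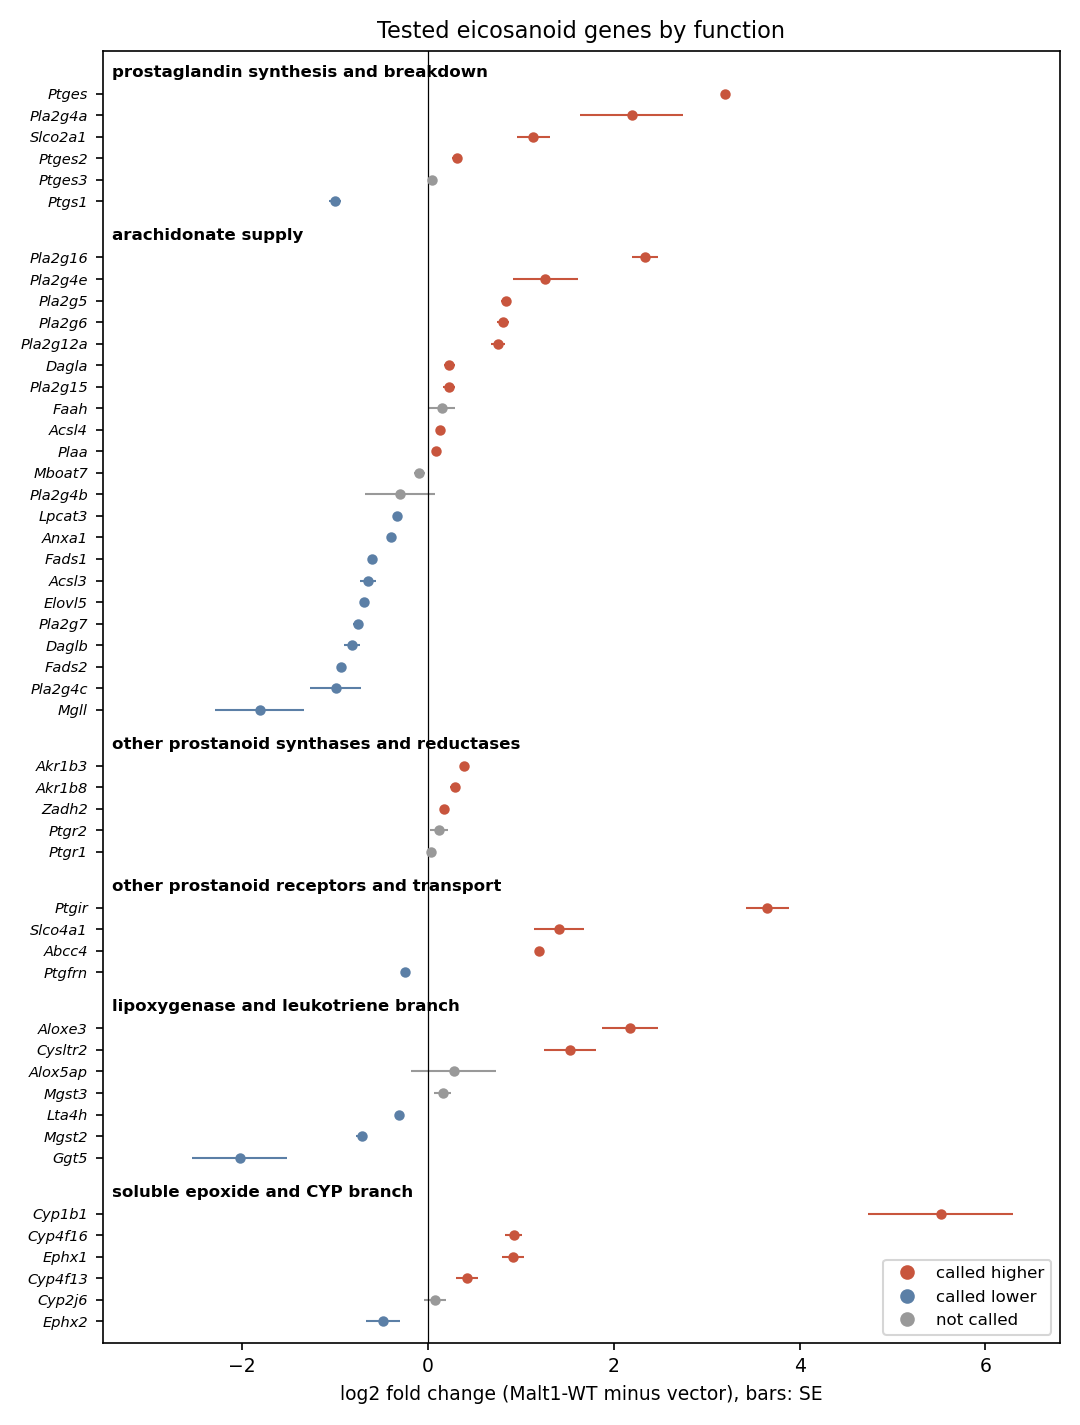
log2 fold change (Malt1-WT minus vector, bars are SE) of the 6 tested members and the 44 other tested eicosanoid genes, grouped by function and coloured by call. Ptges at 3.19 and Ptgir at 3.66 lead their groups, and arachidonate supply genes spread from 2.34 (Pla2g16) to -1.81 (Mgll).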

How the data were processed

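RNA sequencing gave 6 libraries, 3 per group, with group and replicate taken from the sample titles. The authors deposited raw counts per gene, per the file headers and the whole-number values. The submitters' processing notes name STAR 2.7.3a, Trim Galore 0.6.0 and featureCounts 1.6.3, with build GRCm38.p6. Annotation and strand setting: not given in the sources used here. The log2 fold change, the statistic (a score), the p-value and the adjusted p-value columns are from the authors' own comparison, per the file headers, and only the log2 fold change is cited, where the deposited table is named.

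The counts were fitted in R 4.3.3 by edgeR 4.0.16, using filterByExpr with a minimum count of 10, TMM scaling, a robust quasi-likelihood fit on group, and Benjamini-Hochberg adjustment over the 13594 genes left, called at an adjusted p under 0.05. The SE is the log2 fold change divided by the square root of F. CPM uses TMM-scaled totals, and TPM uses exonic lengths from GENCODE M21, without the 256 genes that have none. Libraries of a group differed by 1.88 to 2.36 chi-square units per degree of freedom (chi-square test over genes), so all were kept. Named genes are the members, up to 3 called genes of each list with the largest change (all where 5 or fewer were called), and the 2 markers with most counts per list; further names were added after values were seen. Members and lists were chosen with earlier results of these data known. The fit was tested on simulated data. Alternatives were other scalings (upper quartile, RLE, library size), no filter, DESeq2 1.42.0, limma-voom 3.58.1, a replicate block, and leaving out each library. RefSeq promoters were given for 9 of the 10 members (none for Ptgis).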

Additional observations from a re-analysis of the deposited data

How the results depend on the processing

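Ptges, Ptges2, Ptgs1 and Slco2a1 kept their direction and call under all 13 alternatives planned for them. Pla2g4a did too, but it entered the test only through the group where it is high, so this says nothing of its stability. Their log2 fold changes ranged from 3.12 to 3.21 for Ptges, -1.08 to -0.92 for Ptgs1, 0.96 to 1.22 for Slco2a1, 1.96 to 2.72 for Pla2g4a and 0.23 to 0.37 for Ptges2. Ptges3 was called under none of them and ranged from -0.03 to 0.07, so its sign depends on the scaling. Between 34 and 36 of the other eicosanoid genes were called under these alternatives. Replacing the null of no change by a 2-fold change, a choice made after seeing the data, left 1077 of all genes, 1 member (Ptges) and 5 other eicosanoid genes (Pla2g16, Ptgir, Abcc4, Aloxe3 and Cyp1b1), of which Ptgir, Aloxe3 and Cyp1b1 had passed the filter only through Malt1-WT. With the replicate number as a block, 8168 genes and the same number of members, 5, were called. Same-numbered libraries did not deviate together (correlations -0.0623, -0.0414 and 0.0334). Libraries paired without a shared deviation would look the same, so this does not decide whether the numbers pair them. Levels under about 10 counts per library, as for Pla2g4a, Ptgis and Ptger4, are limited by depth.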

Other observations

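Genes of the other arachidonate branches also differed between the groups. In the lipoxygenase and leukotriene list, 2 of 7 tested genes were higher, 3 lower and 2 not called, beside 61.2% of all tested genes called. Aloxe3 passed the filter on low counts only through Malt1-WT and Ggt5 only through the vector group, each where it is high. Aloxe3, an epidermis-type lipoxygenase gene, had 9, 13 and 14 counts with the vector and 51, 59 and 44 in Malt1-WT (log2 fold change 2.18, SE 0.302, edgeR adjusted p = 1.43e-08). Cysltr2, a receptor gene for cysteinyl leukotrienes, was 1.53 higher on the log2 scale (SE 0.278, adjusted p = 4.09e-06). Ggt5, whose product trims leukotriene C4, was 2.02 lower on that scale, on 11, 20 and 18 against 4, 4 and 3 counts. Mgst2 was 0.71 lower and Lta4h, the leukotriene A4 hydrolase gene, 0.31 lower. Alox5, the 5-lipoxygenase gene that starts leukotriene synthesis, had 0 counts in all 6 libraries.

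In the epoxide and cytochrome P450 list, 4 of 6 tested genes were higher, 1 lower and 1 not called, with the same share called over all genes. Cyp1b1 passed the filter only through Malt1-WT. Cyp1b1, a gene known for oxidising steroids and polyunsaturated fatty acids, had 1 count with the vector and 59 in Malt1-WT, a ratio of 62.8 with an exact 95% binomial interval of 10.9 to 2523, for counting error only. That 1 count lay in vector control replicate 3, and without this library the fitted log2 fold change went from 5.52 to 7.34, which with the vector then at 0 is no bound. Cyp4f16 (0.92), Ephx1 (0.92) and Cyp4f13 (0.42) were higher on the log2 scale. Ephx2, the soluble epoxide hydrolase gene, was 0.48 lower (edgeR adjusted p = 0.0199). Its call was lost with DESeq2 (adjusted p = 0.0616), without vector control replicate 2 (0.18) and without Malt1-WT replicate 1 (0.0785), and its adjusted p over all alternatives went from 0.00342 to 0.18.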
